A study of Mus musculus with 8 samples.

Results

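The genes described here are 10 regulators of the G1 phase of the cell cycle, the stretch in which a cell decides whether to copy its DNA. They are the D-type cyclins Ccnd1, Ccnd2 and Ccnd3, the E-type cyclins Ccne1 and Ccne2, the kinase Cdk4, the retinoblastoma gene Rb1, and the inhibitors Cdkn1a, Cdkn1b and Cdkn2a. They were chosen by name, and each of the 10 was found in 1 row of an expression table of 31010 genes. Their RNA was measured by RNA-seq in 8 lines of germline stem (GS) cells, the cultured form of spermatogonial stem cells, which were kept dividing with GDNF and FGF2. Of these lines, 4 (control 29, 37, 44 and 45) came from untreated control-F1 mice born after natural mating. The other 4 (ICSI 11, 17, 20 and 21) came from ICSI-F1 mice, whose fathers' sperm had been placed into the egg with a needle (intracytoplasmic sperm injection, ICSI). All lines were given as wild type (WT) and carried B6 in their titles. They were grown from CD9-selected spermatogonia of mature testes, so each had passed through culture since leaving the mouse. The study took the sperm for the ICSI-F1 mice from green mice, which express an Egfp transgene, and also calls that sperm wild type. The age of the F1 mice is not given in the labels, and nor is whether each line came from a separate mouse. The study's supplement numbers individual F1 mice, and the numbers of all these lines are among them, though the match is not stated outright. Here n counts lines, and the p-values measure the spread between lines.

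D-type cyclins bind CDK4 or CDK6 and start the phosphorylation of RB1, which releases the E2F factors that switch on genes of DNA synthesis. E-type cyclins with CDK2 complete that step, whereas the CDKN1 family (p21, p27 and p57) binds cyclin-CDK complexes and the CDKN2 family (p15, p16, p18 and p19) keeps D cyclins away from their kinases. In spermatogonial stem cells, growth factor signals that sustain self-renewal act in part through the D and E cyclins, and a loss of CDK inhibitors is known to alter their proliferation.

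The deposited values are FPKM (fragments per kilobase of gene, scaled to the size of the library). Low values were whole multiples of the worth of 1 read, so the reads behind each value could be recovered. The reads recovered in genes summed to 24697355 to 44269397 per library. The titles came in 2 styles whose meaning is not stated. Style 1 joined its words with hyphens (control 29 and 37, ICSI 11 and 17) and style 2 with low lines (_) (control 44 and 45, ICSI 20 and 21). These reads summed to 24697355 to 26651992 per library in style 1 and 32352644 to 44269397 in style 2. The study's supplement gives larger numbers of reads for each library, also higher in every library of style 2. Title style and depth therefore cannot be told apart. The label of germline stem cell was checked against 14 markers of undifferentiated spermatogonia, all of which had a mean of at least 1 FPKM. The germ cell gene Ddx4 was at 173 to 274 FPKM and Dazl at 257 to 420 FPKM. Markers of other cells were also present. All 8 markers of differentiating and meiotic germ cells had a mean of at least 1 FPKM and summed to 303 to 407 FPKM, with Sycp3 at 67.7 to 136 FPKM. All 20 fibroblast markers were at a mean of at least 1 FPKM, none at 0, and they summed to 254 to 1166 FPKM in control lines and 356 to 657 FPKM in ICSI lines. Of the Sertoli cell, Leydig cell and macrophage markers, 3 of 5, 1 of 4 and 1 of 4 reached 1 FPKM. The study's methods describe plating of GS cells on gelatin before collection, which removes embryonic fibroblasts, in their paragraph on PCR. Their paragraph on RNA sequencing does not name this step, so whether it was done for these lines is not certain.

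All 10 genes had a mean of at least 1 FPKM and were tested. Per length, the order of their mean levels over the 8 lines was Ccnd2 (98.9 FPKM), Cdk4 (81.7), Cdkn2a (50.2), Ccnd1 (32.9), Cdkn1a (20.7), Ccnd3 (12.8), Rb1 (12.7), Ccne1 (8.56), Ccne2 (6.27) and Cdkn1b (1.53). Ccnd2 lay above 97.5% of the 12000 genes tested and Cdkn1b above 7.47% of them. Neighbours in this order were not all separated. Ccnd2 was above Cdk4 in 5 of 8 lines, Cdkn1a above Ccnd3 in 6 of 8, and Ccnd3 above Rb1 in 3 of 8, whereas Cdkn2a was above Ccnd1 in 7 of 8 and Rb1 above Ccne1 in 7 of 8. The remaining neighbours kept their order in 8 of 8 lines. The genes also differed in how far they varied between lines. The highest line was 4.00 times the lowest for Cdkn1a, 3.12 times for Ccnd1 and 3.09 times for Cdkn1b, against 1.36 times for Cdkn2a and 1.42 times for Rb1. The fewest reads behind a value were 108 (Cdkn1b in ICSI line 11), at which counting error alone has an SD of 9.62%. For the other 9 genes the fewest reads were 449, and counting error was at most 4.72%.

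**Figure D1:**
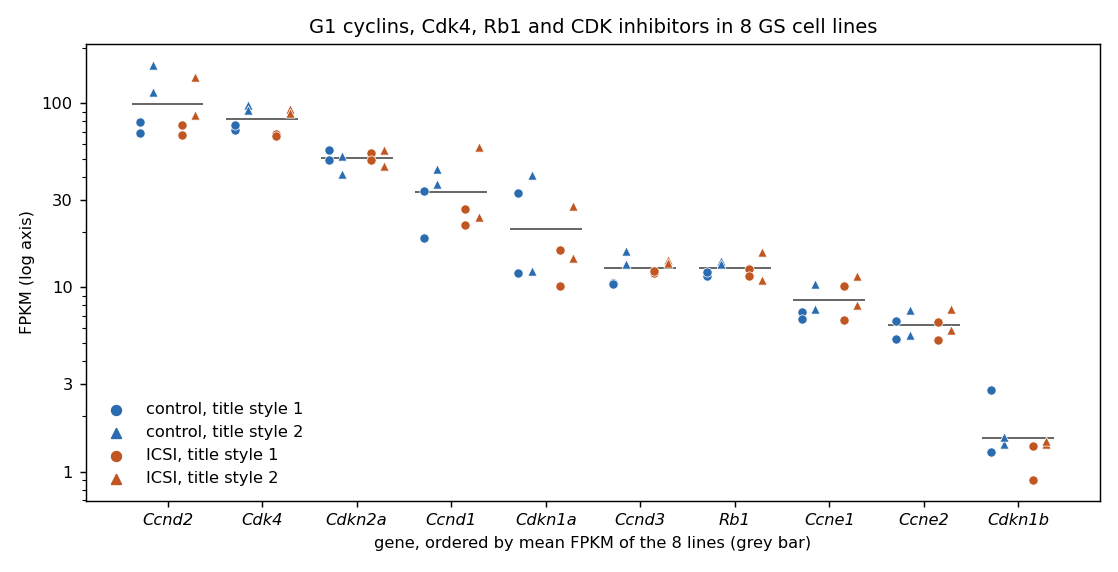
FPKM (log axis) of the 10 genes in each of the 8 GS cell lines, with genes ordered by their mean (grey bar), control lines in blue, ICSI lines in orange, title style 1 as circles and style 2 as triangles. The blue and orange points overlap for every gene, and for Ccnd2, Cdk4 and Ccnd3 the triangles lie above all circles.

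Among the D cyclins, Ccnd2 was the most abundant transcript in every line. Ccnd2 (chr6:127125162-127152193, minus strand, GRCm38) was at 68.7, 78.9, 162 and 115 FPKM in control lines 29, 37, 44 and 45. In ICSI lines 11, 17, 20 and 21 it was at 67.4, 75.8, 138 and 85.8 FPKM. The high lines were control 44, ICSI 20 and control 45, all of title style 2, and the groups overlapped. Ccnd1 (chr7:144929931-144939925, minus strand), the D cyclin best known as a target of growth factor signals, was at 33.6, 18.5, 43.7 and 36.4 FPKM in the control lines. In the ICSI lines it was at 21.9, 26.7, 57.9 and 24.2 FPKM. ICSI line 20 was more than double the other ICSI lines, and control line 37 was the lowest of the 8. Ccnd3 (chr17:47505051-47599691, plus strand) was at 10.6, 10.5, 15.7 and 13.4 FPKM in the control lines and 11.9, 12.3, 14.1 and 13.6 FPKM in the ICSI lines. Its groups overlapped, and every line of style 2 was above every line of style 1.

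Within a line, the levels of the 3 D cyclins were set against each other as differences in log2(FPKM + 1). Ccnd2 exceeded Ccnd3 by 2.80 ± 0.33 (SD, n = 8 lines), higher in 8 of 8 lines, with FPKM ratios of 5.65 to 10.3. Ccnd1 was below Ccnd2 in 8 of 8 lines, by -1.58 ± 0.33, and above Ccnd3 in 8 of 8 lines, by 1.22 ± 0.43. Each of the 10 pairs of related genes compared in this way had an exact two-sided sign-flip permutation p of 0.0078, the smallest that 8 lines allow, and an adjusted p of 0.00781 over the 10 pairs. FPKM divides by the length of all annotated exons, which differs between the genes and which a cell need not use in full. With recovered reads not divided by length, an alternative added once the values were known, the Ccnd1 and Ccnd3 difference was 0.39 ± 0.45 and no longer passed (adjusted p = 0.0781, exact sign-flip permutation test).

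Ccnd2 took most of the D cyclin signal in both groups. The summed FPKM of the 3 genes was 113, 108, 221 and 165 in control lines 29, 37, 44 and 45, and 101, 115, 210 and 124 in ICSI lines 11, 17, 20 and 21. Ccnd2 made up 69.2% ± 5.80 (SD, n = 4) of it in control lines and 67.0% ± 1.68 (n = 4) in ICSI lines. The share of Ccnd1 was 22.2% ± 5.42 in control lines and 23.0% ± 3.37 in ICSI lines, and that of Ccnd3 was 8.59% ± 1.20 and 10.0% ± 2.29. None of these shares passed an exact two-sided permutation test over 70 assignments (p = 0.486 for Ccnd2, 0.83 for Ccnd1 and 0.314 for Ccnd3, adjusted p of 0.648 to 0.83 over 4 shares). The one control line with a different makeup was line 29, in which Ccnd2 took 60.8% and Ccnd1 took 29.8%.

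**Figure D2:**
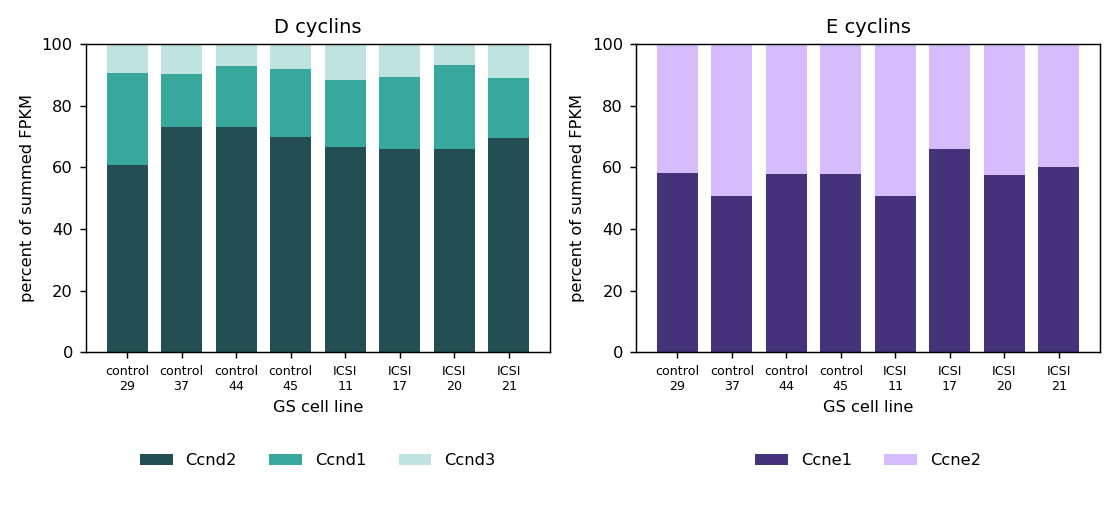
Percent of the summed FPKM that each D cyclin (left) and each E cyclin (right) took in each GS cell line, as stacked bars that add to 100%. Ccnd2 took 60.8% to 73.1% of the D cyclin signal and Ccne1 took 50.7% to 66.1% of the E cyclin signal, with control and ICSI lines overlapping.

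The E cyclins were far less abundant than Ccnd2 and close to each other. Ccne1 (chr7:38097984-38107534, minus strand) was at 7.34, 6.76, 7.60 and 10.4 FPKM in the control lines and 6.70, 10.1, 7.99 and 11.5 FPKM in the ICSI lines. Ccne2 (chr4:11191351-11204779, plus strand) was at 5.26, 6.58, 5.56 and 7.56 FPKM in the control lines and 6.49, 5.20, 5.91 and 7.62 FPKM in the ICSI lines. Both genes had their highest values in control line 45 and ICSI line 21, and the groups overlapped. Ccne1 exceeded Ccne2 in 8 of 8 lines by 0.38 ± 0.26 in log2(FPKM + 1), with FPKM ratios of 1.03 to 1.95. Without division by length the difference was 0.041 ± 0.30 (adjusted p = 0.727, exact sign-flip permutation test), so the order of these paralogs rests on the exon lengths used. Ccne1 made up 56.2% ± 3.67 of the E cyclin sum in control lines and 58.6% ± 6.35 in ICSI lines (exact permutation p = 0.486, n = 4 per group).

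Cdk4, the catalytic partner of the D cyclins, was at 71.3, 76.4, 97.4 and 92.2 FPKM in control lines 29, 37, 44 and 45. In ICSI lines 11, 17, 20 and 21 it was at 68.5, 66.4, 93.2 and 88.0 FPKM. Within either group the lines of title style 2 were the higher ones, and the groups overlapped. Its relative Cdk6 was at 3.33, 3.43, 1.17 and 1.28 FPKM in the control lines and 3.32, 2.28, 1.13 and 1.37 FPKM in the ICSI lines, so its lines of style 2 were the lower ones. Cdk4 exceeded Cdk6 by 4.76 ± 0.68 in log2(FPKM + 1), and in FPKM by 20.6 to 83.4 times. Cdk2, the partner of the E cyclins, ranged from 14.4 to 17.4 FPKM. The 250 bases before the start of Cdk4 (chr10:127063285-127063534, plus strand, RefSeq on GRCm38.p6) are shown because they hold 4 copies of the E-box CACGTG. These letters are bound by MYC and related factors and are marked in capitals.

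Cdk4 upstream: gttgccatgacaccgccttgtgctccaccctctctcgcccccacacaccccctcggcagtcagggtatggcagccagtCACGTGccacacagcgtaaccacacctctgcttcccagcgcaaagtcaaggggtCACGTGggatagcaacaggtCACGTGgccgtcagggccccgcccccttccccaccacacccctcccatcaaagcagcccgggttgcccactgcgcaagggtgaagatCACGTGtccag

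Counted from the gene's start, the E-boxes begin at positions -172, -118, -98 and -11. Among all 32851 RefSeq promoter windows, which run from 250 bases before to 50 after a start, 7.15% hold at least 1 E-box on either strand and 0.0244% hold at least 4. Windows were found for 6 of the 10 genes (9 windows, with more than 1 start for Ccnd3, Cdkn1a and Cdkn2a), namely Ccnd3, Ccne1, Cdk4, Cdkn1a, Cdkn1b and Cdkn2a. The other genes are Ccnd1, Ccnd2, Ccne2 and Rb1. The threshold of 4 E-boxes was taken from the Cdk4 window itself. No other window of the 6 genes holds an E-box, and those of Ccnd3, whose level also separated the title styles, are among them. The window of Cdk6, which was lower in style 2, holds 1. A link between E-boxes and title style was not tested. A GC box (GGGCGG) was found in 8 of the 9 windows, with 4 copies in that of Ccne1 and none in the Cdkn1a window whose sequence is printed, and in 35.7% of all windows. No window of the 6 genes held TATAAA, which 13.6% of all windows do.

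Rb1 (chr14:73183673-73325822, minus strand), whose protein holds E2F factors in check, was at 11.5, 12.2, 13.8 and 13.4 FPKM in the control lines. In the ICSI lines it was at 12.6, 11.6, 15.5 and 11.0 FPKM. The groups overlapped, and ICSI lines 20 and 21 were the highest and the lowest of the 8. The related pocket protein genes were lower. Rb1 exceeded Rbl1 by 0.92 ± 0.29 and Rbl2 by 2.89 ± 0.19 in log2(FPKM + 1), in 8 of 8 lines each. In FPKM it was 1.56 to 2.86 times Rbl1 and 9.95 to 17.9 times Rbl2. Rbl2 had a mean of 0.846 FPKM and was not among the genes tested between groups.

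The inhibitors spanned a wide range of levels. Cdkn2a (chr4:89274471-89294653, minus strand), which encodes p16INK4A and, from another first exon and reading frame, the p53 activator ARF, was at 55.6, 49.3, 51.4 and 41.2 FPKM in the control lines. In the ICSI lines it was at 53.8, 49.3, 55.9 and 45.4 FPKM. The groups overlapped, and the lowest lines were control 45 and ICSI 21. The table holds 1 value for the gene, so p16INK4A and ARF transcripts cannot be told apart. Cdkn1b (chr6:134920401-134925513, plus strand), the gene of p27, was at 2.79, 1.29, 1.42 and 1.54 FPKM in the control lines and 0.902, 1.37, 1.42 and 1.48 FPKM in the ICSI lines. Control line 29 was the highest and ICSI line 11 the lowest, and the other 6 lines lay between 1.29 and 1.54 FPKM.

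Cdkn1a (chr17:29090976-29100727, plus strand), the gene of p21 and a well-known p53 target, varied most of the 10. It was at 32.6, 11.9, 40.5 and 12.2 FPKM in control lines 29, 37, 44 and 45, and at 10.1, 16.0, 27.5 and 14.4 FPKM in ICSI lines 11, 17, 20 and 21. Control lines 44 and 29 and ICSI line 20 were high, the other 5 lines were at or below 16.0 FPKM, and both groups and both title styles held high and low lines. Within a line, Cdkn1a exceeded Cdkn1b by 2.96 ± 0.60 in log2(FPKM + 1) and lay below Cdkn2a by -1.40 ± 0.65, in 8 of 8 lines each. Cdkn1b lay below Cdkn2a by -4.36 ± 0.30. The pseudocount of 1 narrows such differences for a gene as low as Cdkn1b. In FPKM, Cdkn1a was 7.92 to 28.5 times Cdkn1b, and Cdkn1b was 0.0168 to 0.0502 times Cdkn2a. Cdkn2a has the shortest exon length of the 10 genes, and with reads not divided by length the difference between Cdkn1a and Cdkn2a turned to 0.15 ± 0.69 (adjusted p = 0.668, exact sign-flip permutation test).

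The windows before 1 start of Cdkn1a (chr17:29090729-29090978, plus strand) and 1 start of Cdkn2a (chr4:89294620-89294869, minus strand), both RefSeq on GRCm38.p6, are shown. Their letters differ in kind between the windows. Capitals mark a p53 response element in the first and an E2F motif, TTTCCCGC, in the second.

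Cdkn1a upstream: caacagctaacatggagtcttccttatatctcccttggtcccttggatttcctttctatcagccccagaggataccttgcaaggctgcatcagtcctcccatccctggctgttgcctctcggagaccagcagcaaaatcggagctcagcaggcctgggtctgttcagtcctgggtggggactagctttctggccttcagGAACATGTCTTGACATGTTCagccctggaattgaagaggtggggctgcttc

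Cdkn2a upstream: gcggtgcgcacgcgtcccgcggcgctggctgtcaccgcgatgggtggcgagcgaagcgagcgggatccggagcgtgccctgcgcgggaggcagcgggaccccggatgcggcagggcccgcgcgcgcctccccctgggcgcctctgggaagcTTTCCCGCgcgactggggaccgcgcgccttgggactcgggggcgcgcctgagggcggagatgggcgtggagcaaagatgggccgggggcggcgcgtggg

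The p53 element was searched for after the window was read, as a pair of adjoining half-sites with at most 1 mismatch. It begins at position -51 from the Cdkn1a start of the printed window and has matches in 0.0883% of all windows (29 of 32851). The other Cdkn1a window (chr17:29093519-29093768, plus strand) holds no such match. The E2F motif begins at position -99 from the Cdkn2a start of the printed window. The other Cdkn2a window (chr4:89282193-89282442, minus strand) holds none. Which of the starts serves p16INK4A and which ARF was not determined. E2F motifs (TTTGGCGC, TTTCGCGC, TTTCCCGC or TTTGCCGC, either strand) are in 2.27% of all windows and in no other window of the 6 genes. The matches describe these letters and say nothing of binding in GS cells.

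The level of Cdkn1a followed the summed level of the fibroblast markers across lines. The sum was 1166, 352, 962 and 254 FPKM in control lines 29, 37, 44 and 45, and 356, 503, 657 and 391 FPKM in ICSI lines 11, 17, 20 and 21. The 3 lines with the highest sums were the 3 with the most Cdkn1a. Over the 8 lines, Pearson's r between log2(FPKM + 1) of Cdkn1a and log2 of the marker sum was 0.931 (exact permutation p = 0.00151, adjusted p = 0.0151 over the 10 genes). Spearman's rho was 0.881 (exact permutation p = 0.00724, adjusted p = 0.0724), which did not pass after adjustment. With the mean of each title style removed r was 0.985, and without the lines farthest from the median sum (control 44 and 29) r was 0.845. Each style holds 4 lines, too few for an r of its own. The relation was looked for after the values were seen, and the adjustment does not cover the choice of this marker list. It was computed for the 10 genes only, so the share of all genes that follow the marker sum is not known. In bulk RNA fewer cells of a type and less RNA per cell cannot be told apart. Of the other 9 genes, Ccne2 came next with r of -0.795 (exact permutation p = 0.0224, adjusted p = 0.112), then Cdkn2a with 0.701 (exact permutation p = 0.0518, adjusted p = 0.173), and none passed.

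**Figure D3:**
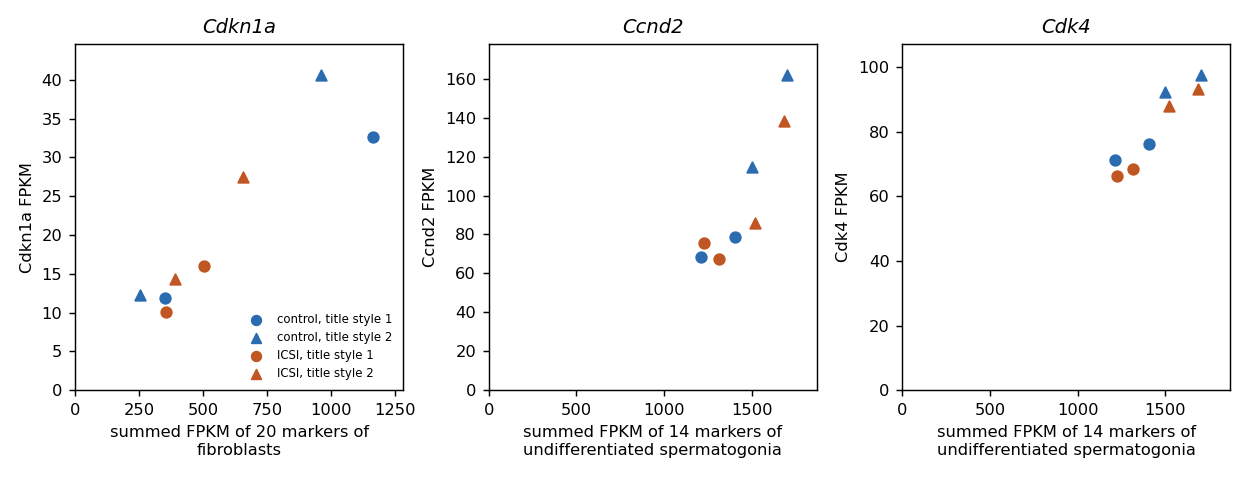
Cdkn1a FPKM against the summed FPKM of 20 fibroblast markers (left), and Ccnd2 (middle) and Cdk4 (right) FPKM against the summed FPKM of 14 markers of undifferentiated spermatogonia, 1 point per line, with colours for the groups and symbols for the title styles. Control lines 29 and 44 and ICSI line 20 are highest in both measures on the left, and the triangles of style 2 lie apart from the circles of style 1 in the other panels.

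The question of the study's design was whether ICSI left a difference in the germline of the F1 mice. No G1 regulator passed the test of a difference between ICSI and control lines. In the fit of all genes, which was limma on log2(FPKM + 1) with two-sided p-values and Benjamini-Hochberg adjustment, 0 of the 10 genes passed an adjusted p of 0.05, and 0 of them had an unadjusted p under 0.05. The background was the same, at 0% of 12000 genes called, although 55 genes had p under 0.05 before adjustment. The control and ICSI lines overlapped for all 10 genes, whereas 0.442% of all genes tested had groups that did not overlap. Adjusted p-values were 1.00 for each of the 10, and exact permutation p-values over 70 assignments (4 lines per group, smallest possible p 0.0286) ran from 0.314 for Cdkn1b to 0.971 for Ccne2 and Rb1. The median difference of the 10 genes was -0.040, beside -0.013 over all genes tested, with 4 differences above and 6 below 0.

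The sizes that these data leave possible differed between the genes. For Cdkn2a the fold of ICSI over control on the log2(FPKM + 1) scale was 1.04 (95% confidence interval 0.862 to 1.25), and for Rb1 it was 0.990 (0.813 to 1.20). For Cdk4 the fold was 0.935 (0.737 to 1.19), and for Ccnd3 it was 1.04 (0.838 to 1.30). The folds were 1.11 (0.836 to 1.47) for Ccne1 and 1.01 (0.802 to 1.27) for Ccne2. The intervals of Cdkn2a, Rb1, Cdk4, Ccnd3 and Ccne2 left out a change of 1.5-fold in either direction, here and in each of 14 alternatives. That of Ccne1 did so here but not in 8 of the 14, among them a pseudocount of 0.1 (upper limit 1.53), TPM (1.59), limma-voom (1.55) and the fits without ICSI line 11 (1.60), ICSI line 20 (1.57), control line 29 (1.502), control line 44 (1.51) or control line 45 (1.60). For Cdkn1b (0.844, 0.635 to 1.12), Ccnd2 (0.883, 0.557 to 1.40), Ccnd1 (0.955, 0.570 to 1.60) and Cdkn1a (0.769, 0.396 to 1.49) the spread between lines left changes of 1.5-fold or more in at least 1 direction possible. With the title style as covariate the interval of Ccnd2 narrowed to 0.673 to 1.16, which leaves out 1.5-fold, and without control line 29 that of Cdkn1b was 0.749 to 1.19. The fibroblast markers lay lower in ICSI lines by mean FPKM for 20 of 20 genes. By the log2(FPKM + 1) difference they did so for 19 of 20, with 0 called. The single lines showed no such order. The marker sums were highest in control lines 29 and 44 (1166 and 962 FPKM) and lowest in control lines 37 and 45 (352 and 254 FPKM). The ICSI lines lay between these, at 356 to 657 FPKM. The part of the fibroblast markers in the Cdkn1a value was not tested.

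**Figure D4:**
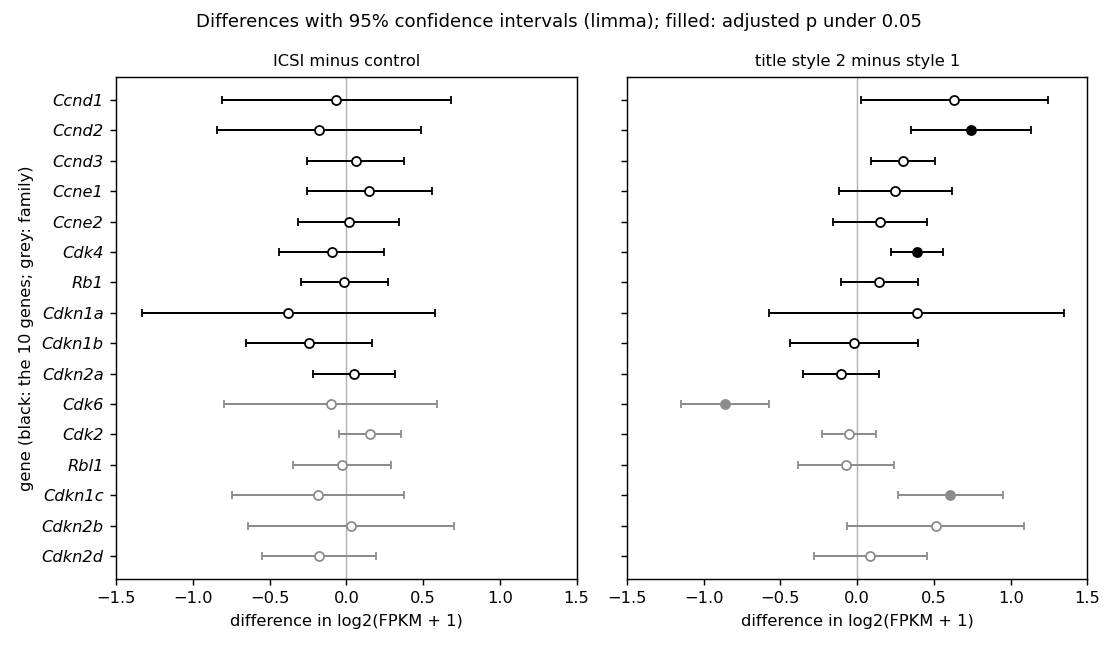
Differences in log2(FPKM + 1) with 95% confidence intervals from limma for ICSI minus control (left) and title style 2 minus style 1 (right), for the 10 genes in black and related genes in grey, with filled points where the adjusted p was under 0.05. All intervals on the left include 0, and on the right Ccnd2, Cdk4 and Cdkn1c are higher and Cdk6 is lower in style 2.

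The lines did differ by title style. With the group as covariate, 2 of the 10 genes were higher in style 2 and 0 were lower, beside 10.2% of all 12000 genes tested that were higher and 5.76% that were lower. Cdk4 rose from 70.6 ± 4.32 FPKM in style 1 to 92.7 ± 3.90 FPKM in style 2 (SD, n = 4 lines each), a log2 difference of 0.39 ± 0.074 (SE, adjusted p = 0.0168). Ccnd2 rose from 72.7 ± 5.51 to 125 ± 32.5 FPKM, a log2 difference of 0.74 ± 0.17 (SE, adjusted p = 0.0272). Ccnd3, with 0.30 ± 0.092 (adjusted p = 0.0589), and Ccnd1, with 0.63 ± 0.27 (adjusted p = 0.129), did not pass. Style 2 lay above style 1 in every line for 3 of the 10 genes (Ccnd2, Ccnd3 and Cdk4), beside 16% of all genes tested. It lay below style 1 in every line for 0 of the 10, beside 10.8% of all genes. The median difference of the 10 genes was 0.27, beside 0.028 over all genes tested.

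Both calls depended on single lines. With a line left out the Cdk4 difference stayed between 0.37 and 0.41, but its adjusted p was 0.0522 without control line 37, 0.0680 without ICSI line 11 and 0.0610 without ICSI line 17. Under quantile normalization the Cdk4 difference was smaller, 0.24 ± 0.067 (adjusted p = 0.0451). For Ccnd2 the adjusted p was 0.0623, 0.0760 and 0.0685 without control lines 29, 37 and 44, and 0.0838, 0.0610 and 0.0569 without ICSI lines 11, 17 and 20. Ccnd1 passed without ICSI line 21 (adjusted p = 0.0279). Markers of undifferentiated spermatogonia moved with the style as well. They summed to 1212 to 1404 FPKM in style 1 and 1500 to 1700 FPKM in style 2, and 8 of the 14 were higher and 0 lower (10.2% and 5.76% of all genes), among them Etv5, a target of GDNF (40.8 ± 9.26 to 90.7 ± 8.90 FPKM, adjusted p = 0.00792 by limma). Of the 8 markers of differentiating and meiotic germ cells, Sycp1 and Sycp3, genes of the synaptonemal complex, were higher (adjusted p = 0.0263 and 0.0173) and the receptor gene Kit was lower (adjusted p = 0.0351). By sign alone, 2 of these 8 markers were higher in style 2 and 6 were lower, with a median log2 difference of -0.36. The call was lost in 8 of 14 alternatives for Sycp1, in 7 for Kit and in 3 for Sycp3. Of the 3 Sertoli cell markers tested, Sox9 was higher (1.03 ± 0.20 to 3.34 ± 1.57 FPKM, adjusted p = 0.0242) and Wt1 lower (2.93 ± 0.51 to 1.23 ± 0.29 FPKM, adjusted p = 0.0150). None of the 20 fibroblast markers passed. The part of these markers in the Cdk4 and Ccnd2 values was not tested.

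Of the 8 relatives outside the 10, 6 were tested, and between the title styles 1 was higher and 1 was lower. Cdk6 was lower in style 2, falling from 3.09 ± 0.54 to 1.24 ± 0.11 FPKM (log2 difference -0.86 ± 0.13, adjusted p = 0.00913 by limma). Cdkn1c, the gene of p57 and an imprinted gene, rose from 17.2 ± 4.57 to 26.2 ± 2.41 FPKM (log2 difference 0.61 ± 0.15, adjusted p = 0.0320). The Cdkn1c call was lost without any 1 of control lines 37, 44 and 45 or ICSI lines 11, 17 and 20 (adjusted p of 0.0526 to 0.0937), and under no filter (0.0658), TPM (0.0548) and quantile normalization (0.0593). Cdk6 passed in each of its 14 alternatives. Cdk2, Rbl1, Cdkn2b and Cdkn2d did not pass, and Cdkn2c and Rbl2 were below 1 FPKM. Between ICSI and control none of the 6 tested relatives of the family passed, and the lowest exact permutation p was that of Cdk2 (0.0571), at 15.1 ± 0.82 FPKM in control lines and 16.8 ± 0.62 FPKM in ICSI lines (n = 4 each).

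The difference between ICSI and control lines was not shown to depend on the title style. No gene of the 10 passed the test of the interaction, beside 0% of all genes tested (147 of 12000 at an unadjusted p under 0.05, 0 of them among the 10). The ICSI minus control difference in log2(FPKM + 1) was -0.60 in style 1 and -0.16 in style 2 for Cdkn1a, and -0.47 and -0.020 for Cdkn1b. For Ccnd2 it was -0.041 and -0.32. Within each style 2 lines stood against 2.

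Lists of pathway genes were counted around the 10. Between ICSI and control, 0 genes passed in each of 6 lists (other G1 to S regulators, turnover of G1 proteins, E2F target genes, G2 and mitosis genes, p53 targets and transcriptional inputs). Between the title styles, 10.2% of all genes tested were higher and 5.76% lower. The other G1 to S regulators had 3 higher and 1 lower of 21 tested, which besides Cdk6 and Cdkn1c included Ccnh, the cyclin of the CDK-activating kinase (31.2 ± 2.04 to 41.1 ± 3.66 FPKM, adjusted p = 0.0302). Of 13 genes for the turnover of G1 cyclins and inhibitors, 4 were higher and 1 lower in style 2. These included Skp1a, a subunit of SCF ubiquitin ligases (192 ± 11.8 to 286 ± 22.5 FPKM, adjusted p = 0.0134), and Gsk3b, whose kinase marks cyclin D1 for export and breakdown (14.8 ± 3.63 to 23.4 ± 1.90 FPKM, adjusted p = 0.0220). Cul3, the scaffold of another class of ligases, was at 60.1 ± 6.76 and 82.4 ± 7.13 FPKM (adjusted p = 0.0312). All p-values are from limma.

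The genes downstream of the G1 decision were counted between the title styles in the same way, beside the 10.2% higher and 5.76% lower over all genes tested. Of 16 E2F target genes of S phase, 1 was higher in style 2 (Mcm4, a subunit of the replicative helicase, 108 ± 19.1 to 157 ± 10.7 FPKM, adjusted p = 0.0227), 0 were lower, and the list's median difference was -0.041. Of 10 G2 and mitosis genes, 2 were lower and 0 higher. They were the proliferation marker Mki67 (51.6 ± 10.3 to 28.3 ± 8.02 FPKM, adjusted p = 0.0359) and Cdc20, an activator of the anaphase-promoting complex (98.2 ± 10.8 to 71.4 ± 9.51 FPKM, adjusted p = 0.0365). Of 12 p53 pathway genes tested, 2 were lower and 0 higher, namely Aen (10.4 ± 1.13 to 7.95 ± 0.19 FPKM, adjusted p = 0.0455) and Bax (79.3 ± 6.64 to 62.5 ± 5.58 FPKM, adjusted p = 0.0484), whose products act in apoptosis. None of the 12 transcriptional inputs to G1 passed. Of the genes named from these lists, each call other than that of Cdk6 was lost in at least 3 of 14 alternatives.

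The gene most like each of the 10 was found by Pearson's r over the 8 lines with the mean of each title style removed, among the 12000 genes tested. For Cdkn1a it was Tceal8 (r = 0.999), for Cdkn2a Atg5 (0.993), for Ccne2 Phkg2 (0.991), for Ccnd2 Glul (0.989), for Rb1 Mid2 (0.989) and for Ccnd1 Dolk (0.987). For Ccnd3 it was Mb21d2 (0.978), for Cdkn1b Psmg3 (0.972), for Cdk4 Eif6 (0.967) and for Ccne1 5430402O13Rik (0.953). With 8 lines and 12000 candidates a high value is usual. The median over all genes of the best r was 0.987, and 6 of the 10 genes reached it.

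Some of the genes overlap a neighbour. In the annotation Ccnd2 overlaps antisense genes, and Ccnd1, Ccnd3, Ccne2, Cdk4, Rb1 and Cdkn1a overlap other genes, whereas Ccne1, Cdkn1b and Cdkn2a overlap none. The library kit named in the labels is not the one named in the study's methods, so it is uncertain whether strand was kept, and the levels of overlapping genes are uncertain with it.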

How the data were processed

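RNA-seq of 8 GS cell lines (4 control-F1, 4 ICSI-F1) was analysed from 1 deposited table. The authors trimmed reads with cutadapt 3.4, aligned them to mm10 with STAR 2.7.9a, counted them per gene with HTSeq 0.13.5 and deposited FPKM values, as the submitters' processing notes and the study's methods state. The log2 fold change and adjusted p-value of the authors' own DESeq2 comparison were deposited in the same table and were not used. Groups came from the sample titles. Reads came out whole for 99.975% of the 12000 genes tested (tolerance 0.02 reads, with exon lengths from an earlier GENCODE release on the same assembly), and these were used only for depth and as an alternative.

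Genes averaging 1 FPKM or more entered limma 3.58.1 in R 4.3.3 on log2(FPKM + 1), with a trend in eBayes, two-sided, with Benjamini-Hochberg adjustment over all genes and a threshold of 0.05. A pseudocount of 1 understates changes of low genes. The title style was tested with the group as covariate, and the interaction with both terms. Pairs and shares were tested with exact permutation tests. The scripts were checked on simulated data. The members and gene lists were chosen with earlier results of these data known. The text names the 10 genes, 8 relatives, up to 3 genes per list with the smallest p among those called, and the gene most alike each of the 10. Promoter windows came from RefSeq (GRCm38.p6), gene positions from GENCODE on GRCm38. Alternatives were a pseudocount of 0.1, no filter, TPM, quantile normalization, limma-voom on recovered reads, other covariates and leaving out each line. Counting errors do not cover amplification, since the reads carry no molecular identifiers.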

Additional observations from a re-analysis of the deposited data

Results flagged for a closer look

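Ccnd1 in ICSI line 20 stood apart from the other ICSI lines. It was at 57.9 FPKM there and at 21.9 to 26.7 FPKM in lines 11, 17 and 21, a gap of 0.865 of the group's range and past Dixon's 95% limit for 4 samples. Of 36 groups of 4 lines examined (the 10 genes and 8 relatives in both groups) this was the 1 flagged, and chance flags about 1 group in 20. The value rests on 8438 reads. Without ICSI line 20 the ICSI minus control difference of Ccnd1 was -0.37 on the log2(FPKM + 1) scale, beside -0.066 with all lines, and neither passed.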

How the results depend on the processing

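In each of the 14 alternatives 0 of the 10 genes were called between ICSI and control, and the count over all genes was 0 in all but that with no filter on low values, where 1 gene passed (Gm42745, listed at 0 in the 4 ICSI lines and at 0.158 to 0.235 FPKM in the control lines, named after its values were seen). With a line left out in turn the ICSI minus control differences ran from -0.37 to 0.086 for Ccnd1, -0.39 to 0.048 for Ccnd2, -0.014 to 0.17 for Ccnd3, -0.069 to 0.098 for Ccne2, -0.11 to 0.046 for Rb1 and -0.030 to 0.11 for Cdkn2a, and with 1 sign from 0.038 to 0.27 for Ccne1, -0.18 to -0.020 for Cdk4, -0.64 to -0.076 for Cdkn1a and -0.33 to -0.083 for Cdkn1b. For the relatives they ran from -0.29 to 0.067 for Cdk6, -0.20 to 0.24 for Cdkn2b and -0.13 to 0.044 for Rbl1. The difference of Rb1 was 0.00093 under TPM and 0.0014 under quantile normalization.

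Between the title styles 1917 genes were called, 64.0% of them higher in style 2. With no filter it was 1255 genes and 1 of the 10 (Cdk4, with Ccnd2 at adjusted p = 0.0599). With a line left out it was 210 to 2691 genes and 0 to 3 of the 10, with 210 without ICSI line 11, 287 without control line 37, 429 without ICSI line 17, 675 without control line 44, 1044 without control line 29, 1061 without control line 45 and 1209 without ICSI line 20. The share of calls that were higher was 51.2% under quantile normalization (1019 higher, 972 lower) and 53.6% under limma-voom (995 higher, 862 lower). Ccnd3 passed without the group covariate (adjusted p = 0.0391). For Cdkn1b the difference was 0.0055 at a pseudocount of 0.1 and 0.055 under quantile normalization, and with a line left out -0.13 to 0.17, with -0.022 to 0.19 for Cdkn2d and -0.16 to 0.035 for Rbl1. The 10 pairs passed at a pseudocount of 0.1 and with any line left out. The ICSI minus control share ran from -0.88 to 3.30 percentage points for Ccnd1 and -0.022 to 5.08 for Ccne1. In reads the Cdkn1a and Cdkn2a difference was 0.15. No interaction was called in 5 alternatives. The cause of these changes was not tested. No paired analysis was possible because the groups share no replicate numbers.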
